A study of Mus musculus with 7 samples.

Results

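The loci described here are the paired Zic genes on mouse autosomes, Zic1 with Zic4 and Zic2 with Zic5, in day 2 epiblast-like cells (EpiLCs) with and without Smad2 and Smad3. Their members are the accessible sites whose midpoint lay within 50 kb of a curated RefSeq transcription start site (TSS) of 1 of these 4 genes. There were 30 such sites of 75880 listed for the whole genome, 17 at Zic1/Zic4 and 13 at Zic2/Zic5. Most were slightly less open in the knockout. The median difference, knockout minus wild-type on the log2 scale, was -0.23 at Zic1/Zic4 and -0.15 at Zic2/Zic5, beside -0.08 over all listed sites. Past a fold of 1.5, 3 sites (10.0%) were lower and 1 (3.33%) higher in the knockout, beside 16.0% and 8.51% of all listed sites. Such shares are smaller among stronger sites, and 25 of the 30 lay above the median wild-type level of all listed sites.

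The Zic genes encode transcription factors with C2H2 zinc fingers, related to the Gli and Glis proteins, and are named after zinc fingers of the cerebellum. They act in the neural plate, the neural crest and the dorsal neural tube, and Zic2 is also active in the epiblast and in pluripotent cells that have left the naive state. In each autosomal pair the genes lie head to head and are transcribed away from each other, so that the sequence between them can serve either gene. Smad2 and Smad3 carry Nodal and activin signals from the cell surface to the nucleus, where they bind DNA together with Smad4 and partner factors such as FoxH1.

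Accessibility was measured by ATAC-seq, in which the Tn5 transposase cuts and tags open DNA. EpiLCs model the primed epiblast and were made from embryonic stem cells (ESCs) grown for 48 h with 20 ng/ml activin A and 12 ng/ml Fgf2. There were 3 differentiations of wild-type (WT) cells of clone CCE and 3 of double-knockout (DKO) cells of clone KT15.1F6, both from male 129 ESCs, and each reaction held 75000 cells. DKO cells carry the targeted Smad2 tm1Rob allele on both chromosomes and a CRISPR nickase deletion of the Smad3 promoter and first exon. With 1 clone per genotype, clone and genotype cannot be told apart. Genomic DNA of WT EpiLCs (100 ng) treated with Tn5 gave 1 control library, which enters no comparison here. Values are the authors' means over a genotype, as log2 of normalized reads per site, called concentration below. No value per differentiation is listed and the authors' own test columns were not used here, so each difference is given as a size, without an error, a test or a depth per library. A lower concentration may mean fewer cells with the site open or less opening per cell, which cannot be told apart in bulk chromatin.

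As a check of the labels, the site at the Smad3 promoter, centred 221 bp from the TSS, had a concentration of 5.42 in WT and -0.10 in DKO, the lowest DKO value listed. The sites nearest the TSSs of 6 primed epiblast genes had WT concentrations of 5.66 to 7.18, those of 6 naive genes 3.77 to 7.83, those of 3 endoderm genes 6.91 to 9.13, and those of 3 genes of fibroblasts and other cells 5.29 to 7.81. The lowest naive value was at Prdm14, whose nearest site lay 23098 bp from the TSS, and the other naive genes began at 4.57. These ranges overlap, so the sites nearest these TSSs do not check the labelled cell type.

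Zic1 lies on chromosome 9 from 91358058 to 91365768 of mm10, on the minus strand. Zic4 lies beside it from 91368972 to 91389351 on the plus strand and has a second TSS at 91377972. The Zic1 TSS and the first Zic4 TSS are 3204 bp apart. On chromosome 14, Zic5 occupies 122459160 to 122465658 on the minus strand and Zic2 occupies 122475384 to 122480328 on the plus strand, with 9726 bp between their TSSs. A non-coding transcript, 2610035F20Rik, starts on the minus strand just upstream of Zic2, leaving 184 bp between both starts. Of the 30 sites, 27 lay within 50 kb of both genes of their pair and 20 had a Zic TSS as their nearest curated TSS. The member farthest out at Zic2/Zic5, 49223 bp from the Zic5 TSS, had 8.62 in WT and 8.75 in DKO on the log2 scale, and the first site outside the window, at 58738 bp, had 4.84 and 4.72. The corresponding sites at Zic1/Zic4 had 5.86 and 5.98 at 42583 bp and 2.75 and 3.77 at 73583 bp. The sites with another nearest TSS were all at Zic2/Zic5 and lay nearer to the non-coding gene Gm5089, to 2610035F20Rik or to Pcca, which encodes a subunit of the mitochondrial propionyl-CoA carboxylase.

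The sequences printed first are those of the 4 sites past a fold of 1.5, all among the 7 of the 30 with the lowest mean concentration. They are given on the plus strand of mm10, whole or as the 300 bp around the midpoint. Capitals mark a match, on either strand, to any of the 7 motif strings described further on.
Between Zic1 and Zic4, chr9:91366890-91367080, lower in DKO: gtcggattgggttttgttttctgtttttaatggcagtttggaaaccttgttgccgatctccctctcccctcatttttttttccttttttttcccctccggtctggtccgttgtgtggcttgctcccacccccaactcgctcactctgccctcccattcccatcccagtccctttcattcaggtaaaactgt
Beyond Zic4, chr9:91418241-91418540, lower in DKO: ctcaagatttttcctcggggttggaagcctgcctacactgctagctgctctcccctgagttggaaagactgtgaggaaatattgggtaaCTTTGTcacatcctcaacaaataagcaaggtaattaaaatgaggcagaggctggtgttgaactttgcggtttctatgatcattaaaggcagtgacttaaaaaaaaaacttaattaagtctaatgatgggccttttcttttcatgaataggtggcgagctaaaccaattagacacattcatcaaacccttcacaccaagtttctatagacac
Gm5089 intron near its TSS, chr14:122450106-122450405, lower in DKO: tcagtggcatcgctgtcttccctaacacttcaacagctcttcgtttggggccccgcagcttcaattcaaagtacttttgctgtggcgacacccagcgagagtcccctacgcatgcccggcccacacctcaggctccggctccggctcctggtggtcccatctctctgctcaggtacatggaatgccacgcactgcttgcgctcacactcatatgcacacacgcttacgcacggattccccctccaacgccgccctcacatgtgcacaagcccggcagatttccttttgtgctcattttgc
Gm5089 intron, chr14:122434260-122434430, higher in DKO: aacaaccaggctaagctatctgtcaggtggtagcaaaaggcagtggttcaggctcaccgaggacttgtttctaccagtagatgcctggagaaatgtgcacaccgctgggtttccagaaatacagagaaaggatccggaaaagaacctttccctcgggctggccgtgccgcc
Of these, only the site beyond Zic4 held a match to any string, to the Sox and Tcf core. The next 3 are shown for contrast and were chosen after their values were seen. They are the stretch between the 2610035F20Rik and Zic2 starts, within the site with the highest concentration of all 30, a strong site in Gm5089 with matches to 3 strings, and a site in an intron of Pcca with 27 CpGs in 300 bp.
Between 2610035F20Rik and Zic2, chr14:122475200-122475383: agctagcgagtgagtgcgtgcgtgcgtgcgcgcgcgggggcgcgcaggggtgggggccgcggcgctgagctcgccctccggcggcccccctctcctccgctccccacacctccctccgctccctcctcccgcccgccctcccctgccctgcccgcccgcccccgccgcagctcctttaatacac
Strong Gm5089 intron site, chr14:122416286-122416585: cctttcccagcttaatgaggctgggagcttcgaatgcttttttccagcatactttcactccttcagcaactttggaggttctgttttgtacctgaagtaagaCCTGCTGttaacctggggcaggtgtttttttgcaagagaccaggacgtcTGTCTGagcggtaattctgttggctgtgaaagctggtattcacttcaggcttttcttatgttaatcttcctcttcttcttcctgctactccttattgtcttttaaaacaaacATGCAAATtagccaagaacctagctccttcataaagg
Pcca intron, chr14:122490771-122491070: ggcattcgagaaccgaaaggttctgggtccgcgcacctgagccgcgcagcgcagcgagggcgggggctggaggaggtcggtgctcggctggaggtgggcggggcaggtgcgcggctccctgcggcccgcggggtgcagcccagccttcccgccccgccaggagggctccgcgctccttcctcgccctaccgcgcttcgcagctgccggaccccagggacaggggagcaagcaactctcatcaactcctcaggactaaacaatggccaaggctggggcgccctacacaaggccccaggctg

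Both loci were open in WT EpiLCs. The median WT concentration was 5.94 at Zic1/Zic4, with a range from 4.07 to 8.74, and 5.99 at Zic2/Zic5, with a range from 3.89 to 9.03, beside a median of 5.06 over all listed sites. In all, 25 of the 30 sites lay above that overall median, and 26 were wider than the overall median of 400 bp. In DKO the medians were 5.98 at both pairs. At Zic1/Zic4 the DKO median is above the WT median although 14 of 17 sites were lower, because a median is set by the middle site, so the differences site by site are given below. The 17 sites at Zic1/Zic4 covered 15800 bp and summed to 2109.4 normalized reads in WT and 1790.7 in DKO, a log2 ratio of -0.24. At Zic2/Zic5, 12990 bp summed to 2008.4 and 1908.6 reads, a log2 ratio of -0.07. The 2 strongest sites supplied 38.3% of the WT sum at the first pair and 45.6% at the second.

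**Figure D1:**
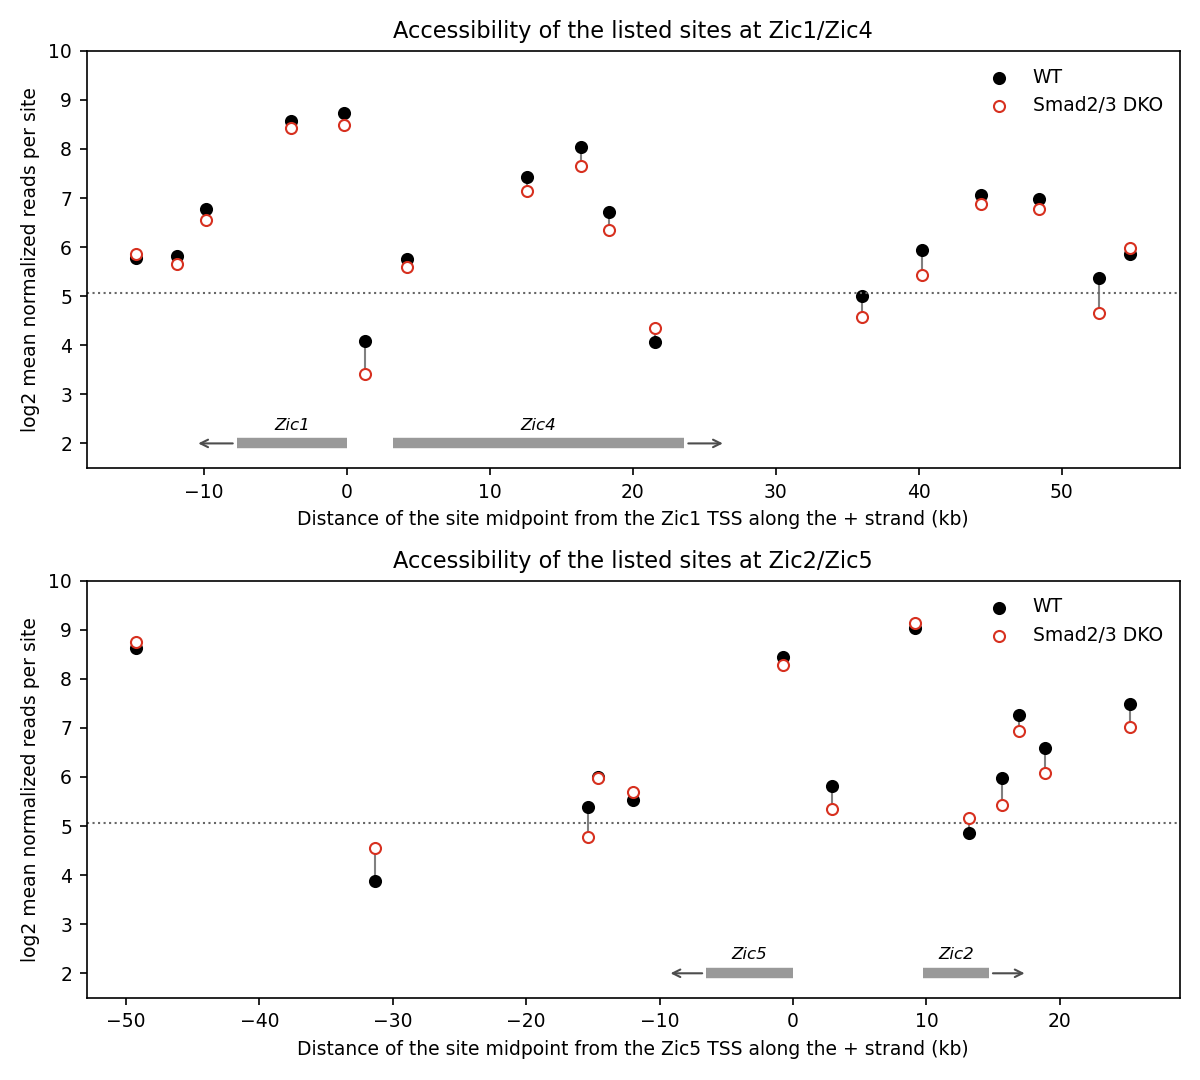
Concentration (log2 mean normalized reads per site) of every listed site, in WT as filled and in Smad2/3 DKO as open circles, against the distance in kb of its midpoint from the Zic1 TSS (top) or the Zic5 TSS (bottom). Grey bars with arrows are the genes and their direction, and the dotted line is the WT median of all listed sites, 5.06. The strongest site of each pair lies at a promoter, with 8.74 in WT at Zic1 and 9.03 at Zic2. The open circles lie below the filled ones at 22 of the 30 sites.

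At the promoters, Zic1 and Zic4 were a little less open in DKO. The site over the Zic1 TSS (91364290 to 91366850, UTR exon and flank) had a concentration of 8.74 in WT and 8.48 in DKO, or 428 and 357 normalized reads, a difference of -0.26. It was the strongest site of its pair. The site nearest the first Zic4 TSS (91369590 to 91370280, in an intron) does not span that TSS. It had 5.76 in WT and 5.59 in DKO, a difference of -0.17. Among all listed sites with a mean concentration of 5 to 6, that lies at percentile 42.5. The site over the second Zic4 TSS (91377330 to 91379360, UTR exon) had 7.43 and 7.14, a difference of -0.29. All 3 sites within 1 kb of a Zic1 or Zic4 TSS were thus lower in DKO. Over all listed sites within 1 kb of a curated TSS, 48.2% were lower and the median difference was 0.01.

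The promoters of the other pair did not share a direction. The site over the Zic5 TSS (122463730 to 122466100, reaching into coding sequence) had 8.44 in WT and 8.29 in DKO, a difference of -0.15. The site over the Zic2 and 2610035F20Rik starts (122473420 to 122476150) had 9.03 and 9.13, or 523 and 560 normalized reads, a difference of 0.10. Its width of 2730 bp made it the widest of the 30. Per kb of site, the WT level on the log2 scale was 7.58 at Zic2, 7.38 at Zic1, 7.2 at Zic5 and 6.41 at the second Zic4 TSS. By that measure the strongest elements lay away from the promoters, at 8.58 in the Gm5089 intron 49223 bp from Zic5 and at 8.02 in the Zic1 intron.

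The 4 largest differences were at sites that span no TSS, though 2 of them lay close to one. The site between the Zic1 and Zic4 starts, 1217 bp upstream of Zic1 and 190 bp wide, begins 40 bp from the edge of the Zic1 promoter site. It had 4.08 in WT and 3.41 in DKO, a difference of -0.67 that corresponds to 16.9 and 10.6 normalized reads. The intergenic site 40418 bp beyond the second Zic4 TSS (91418080 to 91418700) had 5.37 and 4.66, a difference of -0.71, which is the largest decrease of all 30 sites. These 2 were the sites past the fold at Zic1/Zic4.

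At Zic2/Zic5, the intronic Gm5089 site 15403 bp from the Zic5 TSS and 860 bp from a Gm5089 TSS (122450030 to 122450480) had 5.39 in WT and 4.78 in DKO, a difference of -0.61. The increase was in the same gene, 31313 bp from the Zic5 TSS (122434260 to 122434430), with 3.89 in WT and 4.56 in DKO, a difference of 0.67. It is the narrowest of the sites, at 170 bp, and rests on 14.8 and 23.6 normalized reads. The largest increase at Zic1/Zic4, 0.29, was at the 3′ end of Zic4 (91387180 to 91387510, UTR exon), where WT had 4.07 and DKO 4.36.

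The shares past a fold of 1.5, 10.0% lower and 3.33% higher, were both below those of all listed sites. Among the 47687 sites within 50 kb of any curated TSS the shares were 12.7% and 7.96%. Among the 60226 sites with a mean concentration of at least 4, they were 12.4% and 5.4%. At a mean concentration of 5 to 6, which 12 of the Zic sites had, they were 12.2% and 4.95% of all sites. Of those 12 Zic sites, 2 (16.7%) were lower and 0 higher. Over all listed sites such shares fall as concentration rises, and 25 of the 30 Zic sites lay above the overall WT median. The Zic shares as a whole were not set against sites of equal strength. At a looser fold of 5 to 4, 12 Zic sites (40.0%) were lower and 1 (3.33%) higher, beside 29.1% and 17.3% of all sites, and each pair supplied 6 of the 12. No Zic site passed a fold of 2 in either direction, which 6.35% of all sites did downwards and 3.01% upwards. In any amount, 22 of 30 Zic sites (73.3%) were lower in DKO, 14 of 17 at Zic1/Zic4 and 8 of 13 at Zic2/Zic5, beside 57.4% of all sites. Sites of 1 locus are not replicates.

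**Figure D2:**
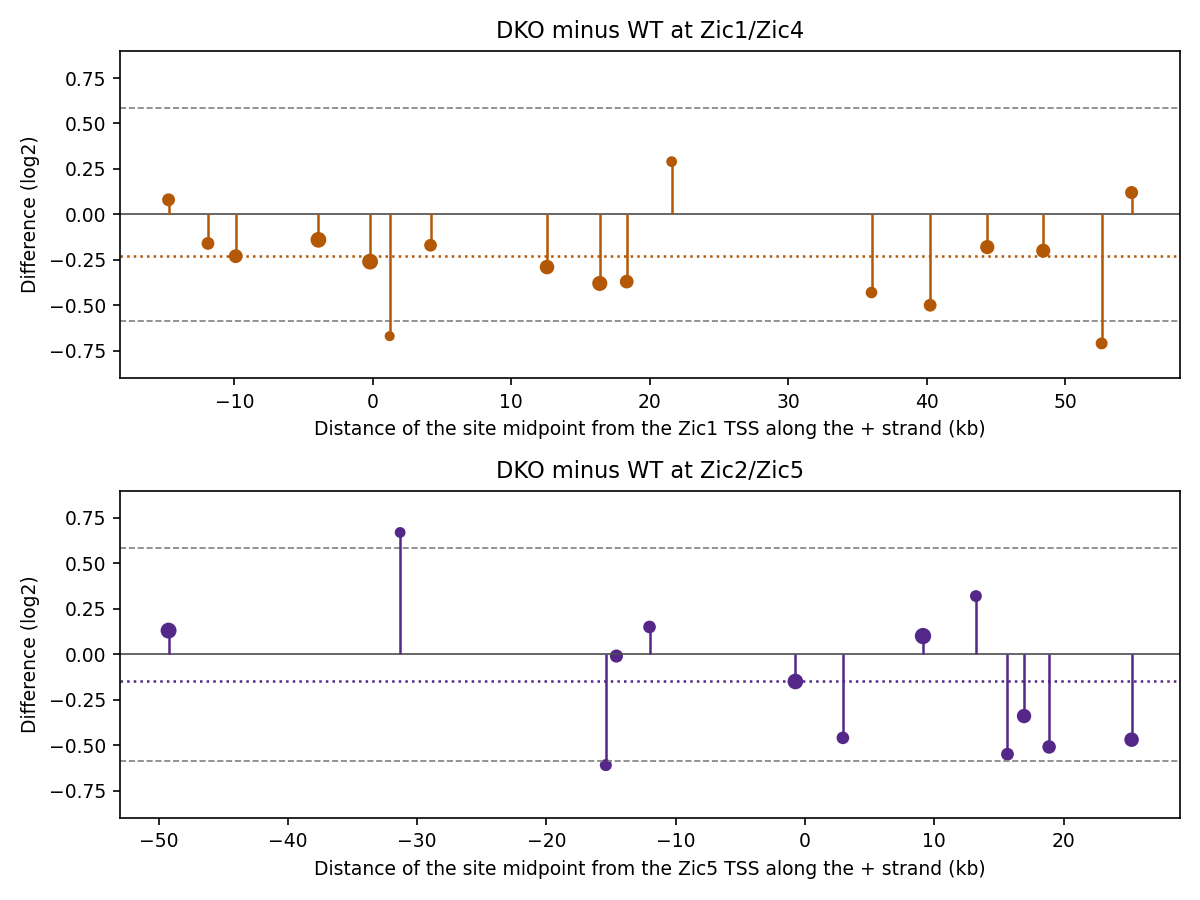
Difference in concentration, DKO minus WT on the log2 scale, for each site against the distance in kb from the Zic1 TSS (top) or the Zic5 TSS (bottom), with larger dots for higher concentrations. Dashed lines mark a fold of 1.5 and the dotted line the median of the pair, -0.23 at Zic1/Zic4 and -0.15 at Zic2/Zic5. All 4 sites beyond the Zic2 end, at the right of the lower panel, were lower in DKO, by -0.55 to -0.34. Of all listed sites, 57.4% were lower.

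Along Zic2/Zic5 the differences were uneven. The 4 sites beyond the 3′ end of Zic2, up to the first part of Pcca, were all lower in DKO, with a median of -0.49 and a range from -0.55 to -0.34. Of all listed sites, 57.4% were lower. The nearest TSS of all 4 was a Pcca TSS, which the site from 122483720 to 122485360 spans. The WT concentrations of these 4 sites ran from 5.97 to 7.49, at percentiles 71.2 to 91.3 of all listed sites. In DKO these sites had 5.42 to 7.02. The strongest of them, the CpG-rich Pcca intron site printed above, had 7.49 in WT and 7.02 in DKO, a difference of -0.47. The 4 sites from Zic5 to Zic2 had differences of -0.46 to 0.32 with a median of -0.02. The 5 sites beyond the 3′ end of Zic5, at and around Gm5089, ran from -0.61 to 0.67 with a median of 0.13. Among them, the strong site printed above had 8.62 in WT and 8.75 in DKO, and the site over the Gm5089 TSS had 5.99 and 5.98. Whether these 3 stretches differ from each other was not tested.

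Along Zic1/Zic4 the direction varied less. From Zic1 to the end of Zic4, 7 of 8 sites were lower in DKO, with a median difference of -0.28, where 57.4% of all listed sites were lower. Beyond the end of Zic4, 5 of 6 intergenic sites were lower, with a median of -0.32 and WT concentrations of 5.01 to 7.06. Beyond the end of Zic1, 2 of 3 sites were lower, with a range from -0.23 to 0.08. By distance from a Zic TSS, all 3 sites at 1 to 5 kb and 8 of 11 sites (72.7%) at 5 to 50 kb were lower in DKO, beside 58.4% and 58.0% of all listed sites at these distances from a curated TSS. These 3 at 1 to 5 kb include the strong Zic1 intron site, with 8.57 in WT and 8.43 in DKO, and an intron site of Zic4 with 8.04 and 7.66.

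The size of a difference in this table moved with the concentration of the site. Over all listed sites with a mean concentration under 4, 29.8% were lower and 20.5% higher past a fold of 1.5, and at 8 or more these shares were 0.978% and 0.423%. The 4 Zic sites past the fold had mean concentrations of 3.78 to 5.12, all among the 7 lowest of the 30. Each of these 4 lay between the 5th and 95th percentiles of all sites of its own band of concentration, at percentiles 8.22 to 92.9. The part of low read numbers in these differences was not tested.

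Among the stronger Zic sites the differences were smaller, and at mean concentrations of 6 to 8 they were of 1 sign. All 5 sites with a mean concentration of 6 to 7 were lower in DKO, by -0.51 to -0.18, where 56.7% of all sites of that band were lower. All 4 sites at 7 to 8 were lower, by -0.47 to -0.29, where 52.2% of all sites were, and they lay at percentiles 5.38 to 14.7 of the band. Of the 5 sites at 8 or more, 3 were lower and 2 higher, from -0.26 to 0.13, where 57.1% of all sites were lower. The Zic1 promoter lay lowest of these 5, at percentile 9.75.

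**Figure D3:**
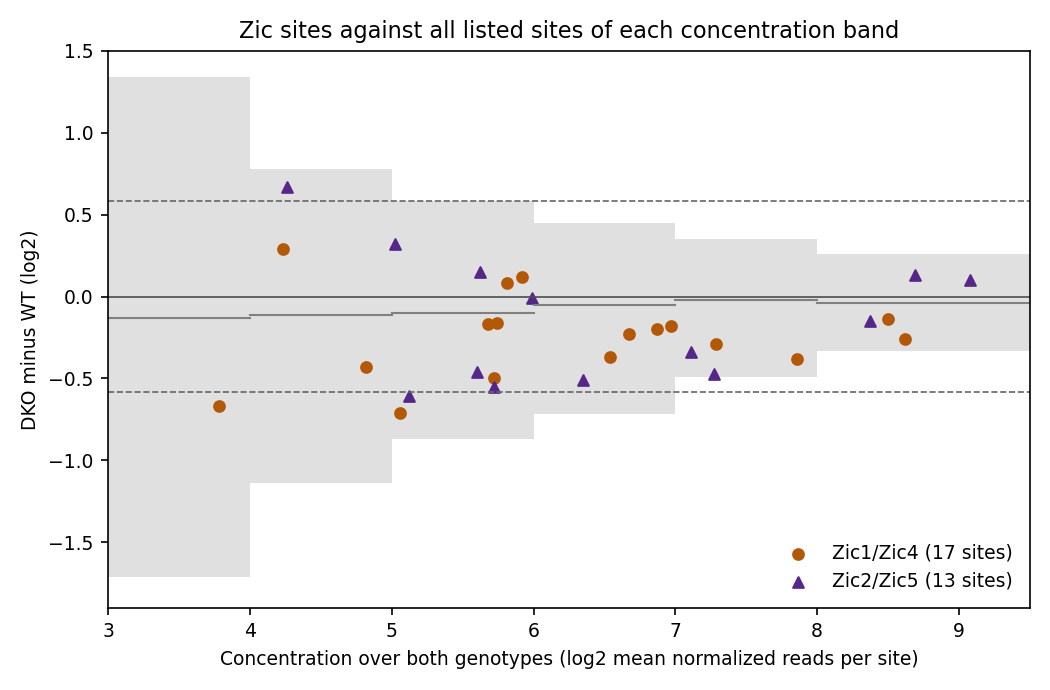
Difference in concentration (DKO minus WT, log2) against the mean concentration over both genotypes for the 17 Zic1/Zic4 sites (circles) and 13 Zic2/Zic5 sites (triangles). Grey boxes span the 5th to 95th percentile of all listed sites in each band of concentration, short lines are the band medians, and dashed lines mark a fold of 1.5. The boxes narrow from -1.71 to 1.34 in the lowest band to -0.33 to 0.26 in the highest, and every Zic site lies inside its box.

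The surroundings had medians of the same sign. In the flanks within 1 Mb, the median difference was -0.10 over 74 sites at Zic1/Zic4 and -0.09 over 90 sites at Zic2/Zic5. These medians were close to the -0.08 over all listed sites, with -0.02 over the rest of chromosome 9 and also of chromosome 14. In the Zic1/Zic4 flanks 18 sites (24.3%) were lower and 7 (9.46%) higher past a fold of 1.5, both above the 16.0% and 8.51% of all listed sites. In the Zic2/Zic5 flanks 12 (13.3%) were lower and 3 (3.33%) higher, both below. The median WT concentration was 4.73 in the Zic1/Zic4 flanks and 5.06 in the Zic2/Zic5 flanks, beside 5.06 over all listed sites.

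Compared with other genes, the Zic genes had many sites and median differences below that of most genes. Of 11409 genes with at least 5 sites within 50 kb of a TSS, the median gene had 7. Zic4 had 17 sites (percentile 99.3), Zic1 15 (98.5), Zic5 13 (96.3) and Zic2 12 (94.0). The median WT concentration over the sites of a gene was 6.72 for Zic1, at percentile 95.5, and 5.94 to 5.99 for the others, at percentiles 79.2 to 80.8. The median difference lay at percentile 15.8 for Zic2, 17.0 for Zic1 and Zic4, and 28.3 for Zic5, where the 5th and 95th percentiles of all these genes were -0.40 and 0.31. Genes of a pair share nearly all their sites, so these are not separate observations. The genes nearest to Zic1/Zic4 in median WT and median DKO concentration, by Euclidean distance over those 2 values, were Kif2c (0.005), Mir1966 (0.018) and Btg4 (0.021). Nearest to Zic2/Zic5 were Dusp26 (0.000), Aasdh (0.005) and Cplx2 (0.014). This likeness covers median levels only. The median differences site by site were -0.02 at Kif2c, 0.17 at Mir1966 and 0.00 at Btg4, beside -0.23 at Zic1/Zic4. They were -0.06 at Dusp26, 0.15 at Aasdh and -0.31 at Cplx2, beside -0.15 at Zic2/Zic5.

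Other genes of the superfamily had sites on both sides of 0. Across Gli1, Gli2, Gli3, Glis1, Glis2 and Glis3, which hold 40 sites, 5 sites were lower and 2 higher in DKO past a fold of 1.5, and the median difference was -0.01. These are 12.5% and 5.0% of the sites, and the lowest difference, -1.23, was at Gli2. Gli3, a transcriptional effector of Hedgehog signalling, had 5 sites with a median of -0.36 and none past the fold. Each of the other 5 genes had a median between -0.06 and 0.19.

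At genes of the primed epiblast more sites were lower past the fold, mostly at Fgf5 and Pou3f1. Of 31 sites at Fgf5, Otx2, Pou3f1 and Foxd3, 11 (35.5%) were lower and 2 (6.45%) higher past the fold, beside 16.0% and 8.51% of all listed sites, with a median of -0.22, close to that of the Zic1/Zic4 sites. At Fgf5, which encodes a growth factor of the primed epiblast, 4 of 6 sites were lower past the fold, with a median of -0.64 and a lowest difference of -1.35. At Pou3f1, a POU factor of the primed state, 5 of 12 sites were lower and 1 higher, down to -1.76. Otx2 had 1 of 7 sites lower and 0 higher, with a median of 0.03. Foxd3 had 1 of 6 lower and 1 higher, with a median of -0.18. Of 43 sites at the early neural regulators Sox1, Sox2, Sox3, Pax6, Pax3 and Hesx1, 7 (16.3%) were lower and 2 (4.65%) higher, with a median of -0.06, so the share of lower sites was near that of all sites. Differences below -1 were listed at genes of all 3 lists and at none of the Zic sites, beside 6.35% of all listed sites. These sites had mean concentrations of 3.22 to 6.98. Large differences were more frequent among weak sites, and only 1 Zic site had a mean concentration under 4. No test between these lists and the Zic sites was run.

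**Figure D4:**
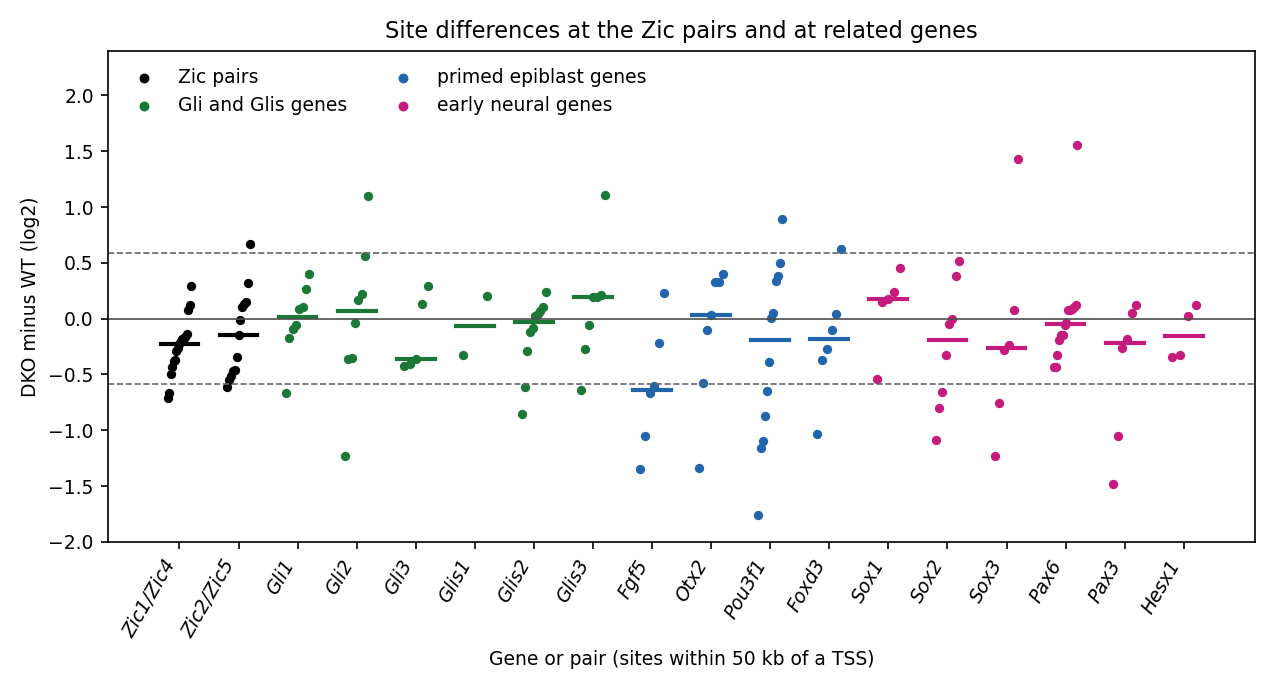
Difference in concentration (DKO minus WT, log2) of every listed site within 50 kb of a TSS, for the 2 Zic pairs, the Gli and Glis genes, the primed epiblast genes and the early neural genes. Each dot is a site, bars are medians and dashed lines mark a fold of 1.5. The Zic pairs span -0.71 to 0.67, while sites of Pou3f1 reach -1.76 and sites of Pax6 reach 1.56. The sites at -1.76 and 1.56 had mean concentrations of 3.51 and 2.87. Of all listed sites under 4, the 5th and 95th percentiles were -1.71 and 1.34.

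The Zic sites were rich in CpG. In the 300 bp around the midpoint, the median GC content was 52.0% with 11 CpGs at Zic1/Zic4 and 58.7% with 14 CpGs at Zic2/Zic5, beside 51% and 5 CpGs over all listed sites. In all, 26 of 30 sites lay above the overall median number of CpGs and 22 above the overall median GC content.

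The strings searched, on both strands and without mismatches, were ATGCAAAT (POU octamer), TGTGGATT (FoxH1), GGATTA (Otx2), CAGACA (Smad), GTCTAGAC (Smad palindrome), CAGCAGG (Zic core) and ACAAAG (Sox and Tcf core). The FoxH1 and Otx2 strings overlap where the first is followed by an A. Of the 30 sites, 19 held none of the strings in 300 bp. The Smad string was in 5 sites (16.7%), beside 23.3% of all listed sites. The Zic core was in 5 (16.7%), the same share as of all sites, and the Sox and Tcf core in 5, beside 22.9%. The octamer was in 1 site (3.33%, beside 3.16%) and the Otx2 string in 1 (3.33%, beside 8.71%). The FoxH1 string and the Smad palindrome were in none, beside 1.07% and 0.224% of all sites. The octamer lay in the strong Gm5089 site printed above, together with a Smad string and a Zic core, and that site had a difference of 0.13. A match describes only the letters in the window, and an absent match says nothing of the factor.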

How the data were processed

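ATAC-seq libraries (75 bp paired-end reads, 11 PCR cycles) came from 3 WT and 3 DKO differentiations, each in 2 technical replicates, and 1 genomic DNA control. The authors aligned reads to mm10 with bowtie2, allowing neither mixed nor discordant pairs. Reads that were not unique or fell in blacklisted regions were dropped, as were PCR duplicates (Samtools). DANPOS2 then called the sites from the triplicates with the control, and DiffBind compared them. DiffBind's version and normalization, tool settings and any Tn5 offset are not given in the sources used here. An offset would move borders by a few bases.

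The deposited table holds log2 concentrations, made by the authors from mean normalized reads of WT, of DKO and of all libraries, and has 0 columns per library, so the depth per sample is unknown. Its other columns, the authors' fold, p-value and FDR, were not used. Differences are DKO minus WT concentration, called by size alone past a fold of 1.5 (0.585 on the log2 scale), with no pseudocount and no filter on low sites. Midpoints were compared with 31601 curated RefSeq TSSs of GRCm38, which mm10 names, taking positions as listed.

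The members, gene lists and strings were chosen with earlier results of these data known. Sites given in full were those nearest each Zic TSS, the strongest of each pair, those past the fold and, at a mean concentration of at least 4, the largest difference each way. The sites in the Zic1, Zic4 and Pcca introns, the strong Gm5089 site and the Gm5089 TSS site were added after their values were seen. The stretches along each locus were not among the planned groups. Likeness used genes with at least 5 sites. 1 gene of the related list is not reported here. Alternatives were other folds, centring, a pseudocount, a concentration minimum, other windows and annotations, levels per kb and 500 bp motif windows. Site search and counting were tested on simulated data. Python 3.11.15, numpy 2.4.6, pandas 2.3.3, pysam 0.24.0 and matplotlib 3.10.9 were used.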

Additional observations from a re-analysis of the deposited data

How the results depend on the processing

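Of 43 values computed under the alternatives, 30 stayed within 0.1 (log2) of the reported median or within 1.5 times the reported count, and 13 moved. The 3 lower sites became 12 at a fold of 5 to 4, and none passed in either direction at a fold of 2 or with a pseudocount of 8 normalized reads, which shrinks differences of weak sites by construction. Centring each pair on the median of its 1 Mb flanks, chosen after seeing the data, left 1 lower site. The 1 higher site became 0 with a 20 kb window or when the nearest curated TSS had to be a Zic TSS, and 2 with a 100 kb window. The Zic2/Zic5 median of -0.15 became -0.34 with the 20 kb window, which leaves out the weakest and the strongest of the Gm5089 sites. Per kb of site, the WT medians of 5.94 and 5.99 became 6.50 and 6.69. In 500 bp the 17 matches of a string to a site became 26. Both medians were negative under every alternative computed, but centring on the median of all sites brought them to -0.15 at Zic1/Zic4 and -0.07 at Zic2/Zic5, and centring on the flanks to -0.13 and -0.06.

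No paired analysis was possible because the columns hold a mean over the 3 differentiations of each genotype and carry no replicate number. Leaving out each differentiation in turn was not run for the same reason. The differences were not set against replicate error here, and clone and genotype cannot be told apart. The weak sites, from 14.8 normalized reads in WT, are the least precise.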

Other observations

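Further out from the pairs, sites were weaker and larger differences were listed. Between 50 and 200 kb from a Zic1 or Zic4 TSS, where no other curated TSS was nearer to any of them, 14 intergenic sites had WT concentrations of 2.75 to 5.95. Their median difference was -0.13, with 4 sites (28.6%) lower and 2 (14.3%) higher in DKO past a fold of 1.5, beside 16.0% and 8.51% of all listed sites. The lower sites had mean concentrations of 3.89, 3.02, 5.59 and 3.91, and both higher sites 3.35. At a mean concentration under 4, the shares of all listed sites were 29.8% and 20.5%. The largest increase, 1.02, lay 73583 bp from the second Zic4 TSS (91451390 to 91451720), where WT had 2.75 and DKO 3.77. The largest decrease, -0.95, lay 194968 bp from the Zic1 TSS (91170720 to 91170880), where WT had 4.29 and DKO 3.34.

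Around Zic2/Zic5, 11 sites at 50 to 200 kb had a median difference of -0.25, with 1 lower and 1 higher past the fold (9.09% each). The lower site, in an intron of Clybl 90148 bp from the Zic5 TSS (122375320 to 122375700), had 4.62 in WT and 3.20 in DKO, a difference of -1.42. The higher site, in the same gene 135383 bp from Zic5 (122330150 to 122330400), had 3.74 and 4.72, a difference of 0.98. A strong site 58986 bp from Zic2, at a coding exon of Pcca (122533960 to 122534780), had 8.44 in WT and 8.55 in DKO. Its midpoint lay 42 bp from a curated Pcca TSS.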
